A study of Mus musculus with 12 samples.

Results

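Transcripts of 10 genes that break down tryptophan and build NAD were followed in injured mouse kidneys: Acmsd, Afmid, Kmo, Kynu, Haao, Qprt, Nampt, Naprt, Nmnat1 and Nadk. They were chosen by name, through their Ensembl numbers, and all 10 are listed in both deposited expression tables, among 32199 genes in the first and 31719 in the second. The 12 libraries each come from the kidney of a male mouse aged 8 weeks that lost its other kidney by surgery and recovered for 3 weeks. After 24 h without water, each mouse received furosemide, a loop diuretic, 20 min before the iodinated contrast agent iodixanol went into the tail vein, and the kidney was taken 24 h later. The first set holds 3 C57BL/6 wild-type and 3 Padi4 knockout (PAD4 knockout) mice, and the second holds another 3 wild-type mice and 3 labelled Il33 knockout (IL-33 knockout). All groups therefore share nephrectomy, water deprivation, furosemide and contrast, and no kidney without contrast is analysed here. How either knockout was made is not given in the sources used here. PAD4 is an arginine deiminase that modifies histones and takes part in forming neutrophil extracellular traps, and IL-33 is a cytokine released by damaged cells.

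Cells make NAD, the cofactor of most redox reactions, from tryptophan, from nicotinic acid or from nicotinamide. In the tryptophan route a dioxygenase (Tdo2, Ido1 or Ido2) opens the ring, and Afmid, Kmo, Kynu and Haao convert the product step by step to an unstable intermediate, aminocarboxymuconate semialdehyde (ACMS). ACMS either closes spontaneously to quinolinate, which Qprt commits to NAD, or is removed by Acmsd, which diverts it to complete oxidation. Nampt starts the salvage of nicotinamide, Naprt starts the use of nicotinic acid, Nmnat1 joins the adenylyl group on in the nucleus for all these routes, and Nadk phosphorylates NAD to NADP. In the kidney the tryptophan route is known chiefly from the proximal tubule, and a low level of Qprt has been linked with susceptibility to acute kidney injury.

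Levels are in FPKM, the fragments of a gene scaled by its transcript length and by the library total, from which sequencing depth cannot be read. Between 10205 and 11983 genes reached 1 FPKM in the libraries of the first set and between 11765 and 12657 in those of the second. Mitochondrially encoded genes took 52.0% to 60.0% of the summed FPKM in the first set and 24.1% to 29.2% in the second. Each knockout was set against the wild type of its own set, and no level was tested between the sets. The main fit used the deposited FPKM with no further normalization. Padi4 fell in the PAD4 knockout (adjusted p = 0.0147, limma), from 0.704, 1.06 and 1.67 FPKM to 0.217, 0.497 and 0.187 FPKM. Some Padi4 transcript thus remained in every knockout library. The neutrophil marker Ly6g fell there too, from a mean of 6.40 to 2.07 FPKM (adjusted p = 0.00597, limma). The part of neutrophil RNA in the fall of Padi4 was not tested. Il33 was at 1.71, 1.13 and 3.64 FPKM in wild-type mice of the second set and at 1.14, 0.616 and 1.02 FPKM in the libraries labelled IL-33 knockout. These groups overlapped and did not pass the test (adjusted p = 0.0990, limma), so those libraries are named by their label throughout. Il33 fell in the PAD4 knockout, from a mean of 4.05 to 1.25 FPKM (adjusted p = 0.00208, limma). The first set also holds transcripts of other tissues: the median of 12 colon markers was 30.2, 40.9 and 34.5 FPKM in wild-type mice and 4.57, 25.0 and 13.9 FPKM in PAD4 knockout libraries 1 to 3. Of these, 11 fell in the PAD4 knockout, as did 9 of 10 lung and 9 of 10 smooth muscle markers, against 8.79% of all genes tested. Among the lung falls, 2 (Lamp3 and Cldn18) reached the level tested, a mean of 0.5 FPKM, through wild type alone and so had to differ. PAD4 knockout library 2 stood apart from the other knockout libraries in the medians of these other-tissue markers and of the proximal tubule markers. Results are therefore also given without it.

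Promoter sequences are shown for Haao, which had the highest change in the PAD4 set, and Qprt, which rose in both sets. Each is the 250 bases before the RefSeq start site, printed 5′ to 3′ along the gene's strand (GRCm38.p6, a build that may not be the one the authors used). Haao is on the minus strand at chr17:83846791-83847040 and Qprt on the minus strand at chr7:127122030-127122279. Capitals mark a match to AGGTCA (the core of nuclear receptor sites) on either strand.
Haao: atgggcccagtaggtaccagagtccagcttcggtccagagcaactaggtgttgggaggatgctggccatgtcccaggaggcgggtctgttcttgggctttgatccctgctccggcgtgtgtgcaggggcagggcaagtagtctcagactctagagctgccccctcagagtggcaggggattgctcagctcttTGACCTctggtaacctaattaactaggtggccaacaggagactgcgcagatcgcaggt
Qprt: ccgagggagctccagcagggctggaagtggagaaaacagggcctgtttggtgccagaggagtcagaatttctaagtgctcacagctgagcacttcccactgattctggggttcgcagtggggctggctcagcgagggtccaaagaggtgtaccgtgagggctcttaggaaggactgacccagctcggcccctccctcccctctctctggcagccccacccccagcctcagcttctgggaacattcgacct

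Matches were also sought to CAAAGT (the core of HNF4 sites) and CACGTG (an E-box), on both strands. Windows of 7 of the 10 genes were used, with 2 start sites for Nadk and Nmnat1, which made 9 windows. Haao holds TGACCT, the reverse complement of the nuclear receptor core, from base -58 before the start. Nampt holds AGGTCA from -151, Kmo holds ACTTTG, the reverse complement of the HNF4 core, from -136, and Nadk holds CACGTG from -40. The Qprt window holds none of these letters. Over 32851 RefSeq windows of the same length, 14.0% hold the nuclear receptor core, 12.6% the HNF4 core and 6.02% the E-box, so such matches are common.

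In the PAD4 knockout kidneys, 4 of the 8 genes at a testable level rose and 0 fell: Haao, Qprt, Kmo and Nmnat1. Over all 13986 genes tested, 17.7% passed, 8.89% as rises and 8.79% as falls, by the same rule (adjusted p under 0.05, limma). The mean FPKM of all 10 was higher in the knockout, and in 4 of the 8 tested every knockout library lay above every wild-type library, which held for 17.2% of all genes tested. The median change of the 8 was 0.80 on the log2(FPKM + 1) scale (0.59 for all 10), against 0.02 over all genes. All changes below are knockout minus wild type on that scale, and the added 1 shrinks the change of a gene whose FPKM is low. Each SE is limma's. For any single gene, the smallest p an exact permutation test of 3 libraries against 3 can reach is 0.1.

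**Figure D1:**
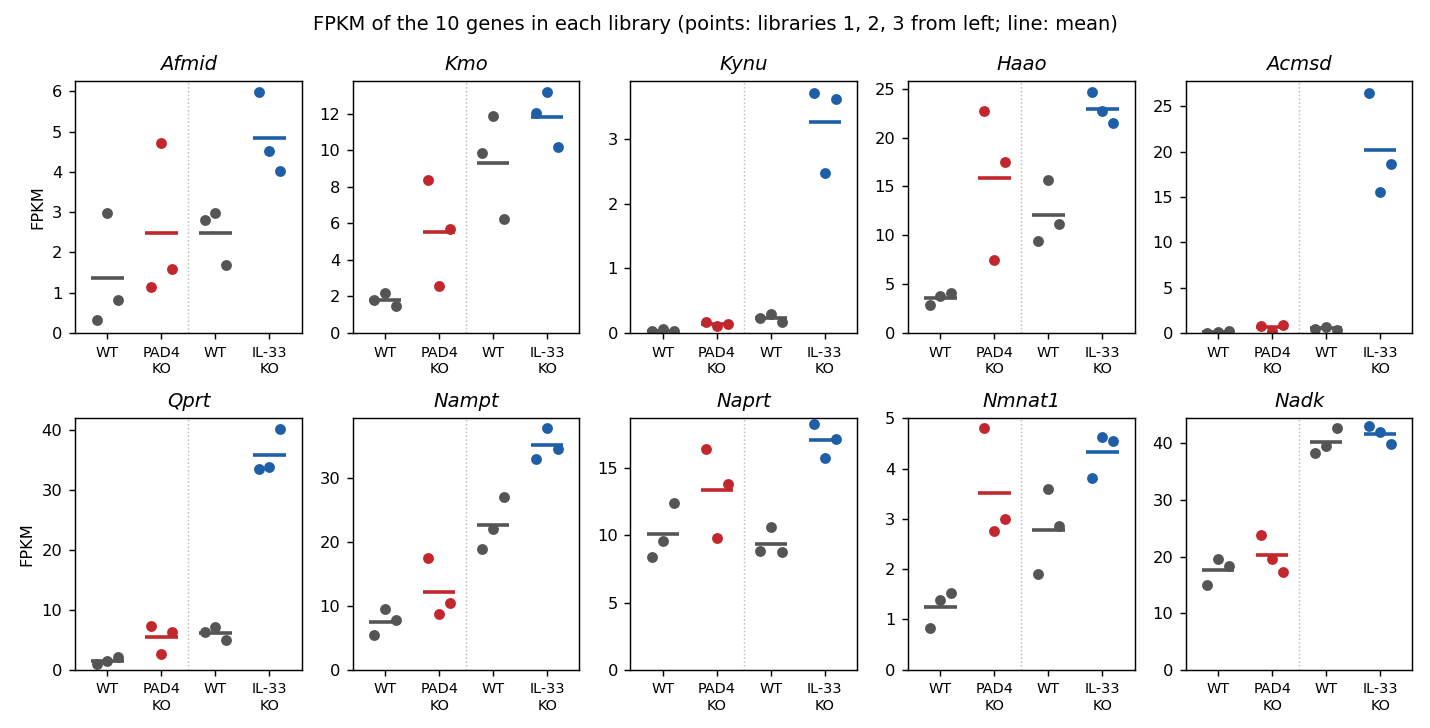
FPKM (vertical axes, each with its own scale) of the 10 genes in each of the 12 libraries, as points in the order of library 1 to 3, with the group mean as a line and a dotted line between the sets. Acmsd, Kynu and Qprt in the libraries labelled IL-33 knockout lie far above their wild type, while Nadk overlaps its wild type in both sets.

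Haao (ENSMUSG00000000673), the dioxygenase that makes ACMS, was at 2.92, 3.78 and 4.05 FPKM in wild-type mice and at 22.8, 7.47 and 17.5 FPKM in PAD4 knockout libraries 1 to 3. The groups did not overlap, and knockout library 2 lay nearest to the wild type. The change was 1.77 ± 0.33 (SE), adjusted p = 0.00133 (limma), and the knockout mean was 4.44 times that of wild type. Kmo (ENSMUSG00000039783), which hydroxylates kynurenine, went from 1.79, 2.17 and 1.48 FPKM to 8.37, 2.58 and 5.70 FPKM. Its groups did not overlap either, but library 2 was only just above the highest wild-type value. The change was 1.12 ± 0.29 (SE), adjusted p = 0.0116 (limma). Kmo overlaps Fh1 on the opposite strand, whose level was 17.8 to 46.9 FPKM in this set. The library kit kept the strand, per the labels' protocols, and whether the counting used it is not given in the sources used here.

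Qprt (ENSMUSG00000030674), which commits quinolinate to NAD, was at 1.02, 1.45 and 2.10 FPKM in wild-type mice and at 7.33, 2.62 and 6.24 FPKM in PAD4 knockout mice. All knockout libraries were higher, by 1.28 ± 0.29 (SE), adjusted p = 0.00478 (limma), or 3.54 times the wild-type mean. Nmnat1 (ENSMUSG00000028992), the nuclear adenylyltransferase, went from 0.834, 1.39 and 1.52 FPKM to 4.82, 2.76 and 3.00 FPKM, again without overlap. The change was 1.00 ± 0.23 (SE), adjusted p = 0.00611 (limma).

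Acmsd (ENSMUSG00000026348) and Kynu (ENSMUSG00000026866), which cleaves hydroxykynurenine, were below the level tested in this set, a mean of 0.5 FPKM. Acmsd was at 0.0492, 0.0939 and 0.241 FPKM in wild-type mice and at 0.772, 0.244 and 0.939 FPKM in knockout mice. Kynu was at 0.0246, 0.0559 and 0.0321 FPKM and then at 0.167, 0.112 and 0.140 FPKM. In neither gene did the groups overlap, although Acmsd in knockout library 2 equalled the highest wild-type value to within 0.01 FPKM. Kynu did not reach 0.2 FPKM in any library of the set.

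The remaining 4 genes did not pass the test. Nampt (ENSMUSG00000020572) was at 5.38, 9.47 and 7.80 FPKM in wild-type mice and at 17.5, 8.67 and 10.4 FPKM in PAD4 knockout mice (0.60 ± 0.30, SE, adjusted p = 0.189, limma). Naprt (ENSMUSG00000022574) was at 8.37 to 12.4 FPKM and 9.82 to 16.4 FPKM (0.36 ± 0.29, SE, adjusted p = 0.440, limma). Nadk (ENSMUSG00000029063), the most abundant of the 10 in wild type, was at 15.0 to 19.5 FPKM and 17.3 to 23.8 FPKM (0.19 ± 0.29, SE, adjusted p = 0.727, limma). The groups of all 3 genes overlapped.

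Afmid (ENSMUSG00000017718), the formamidase that frees kynurenine, is uncertain. Its values were 0.321, 2.97 and 0.830 FPKM in wild-type mice and 1.13, 4.71 and 1.60 FPKM in PAD4 knockout mice (0.57 ± 0.35, SE, adjusted p = 0.288, limma). It overlaps Gm20708 on the same strand, which was at 4.54, 0.245 and 5.22 FPKM and at 8.59, 0.0444 and 4.91 FPKM in the same libraries. Library 2 of each group was thus high for Afmid and low for Gm20708. How reads were divided between the overlapping genes is not given in the sources used here, and these overlap values were looked up after those of Afmid had been seen. The sum of both was 4.86, 3.22 and 6.04 FPKM in wild-type mice and 9.72, 4.75 and 6.50 FPKM in knockout mice, and the groups overlapped.

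Individual libraries and the filter decided several of these calls. PAD4 knockout library 2 was the lowest of its group for 8 of the 10 genes, and without it the same number rose, with changes of 2.20 for Haao, 1.64 for Qprt, 1.50 for Kmo and 1.12 for Nmnat1. Wild-type library 1 was the lowest of its group for 9 of 10, and without it only 1 of the genes rose: Haao kept an adjusted p of 0.0466 (limma), while Kmo (0.0945), Qprt (0.0800) and Nmnat1 (0.0578) did not pass. Without wild-type library 3, Kmo alone of the 4 was lost (adjusted p = 0.0825, limma). With no filter on level, 0 genes of the whole table passed in limma, so none of the 4 did (adjusted p from 0.117 to 0.187). At an unadjusted p under 0.05 there were 6053 genes with no filter and 4292 with it.

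**Figure D2:**
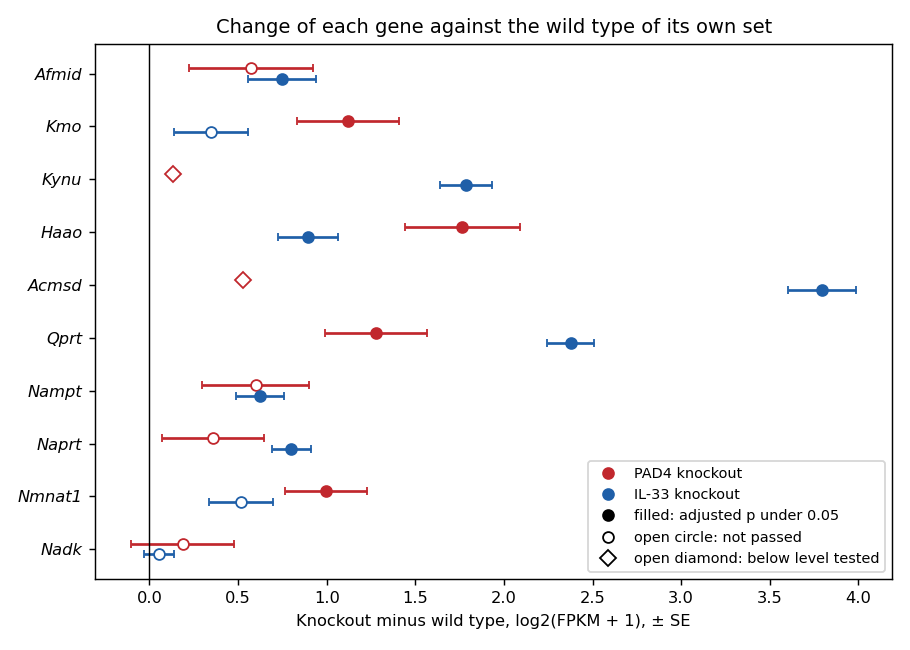
Change of each gene against the wild type of its own set (horizontal axis, knockout minus wild type in log2(FPKM + 1), bars ± SE from limma), in red for PAD4 and blue for IL-33. Filled circles passed an adjusted p of 0.05, open circles did not, and diamonds are genes below the level tested. Haao has the highest PAD4 change (1.77) and Acmsd the highest IL-33 change (3.79).

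In the libraries labelled IL-33 knockout, 7 of the 10 genes rose and 0 fell, and Acmsd, Qprt and Kynu rose most. Of all 14513 genes tested, 39.1% passed, with 22.2% rising and 16.8% falling, so rises are common in this comparison. Kynu reached the 0.5 FPKM filter only through its knockout libraries and so had to differ, and 6 of the other 9 rose. Acmsd, counted among those 6, was only just at the filter in wild type, with a mean of 0.501 FPKM. Every knockout library lay above every wild-type library for 8 of the 10, Kynu and Acmsd included, against 30.2% of all genes tested. The median change of the 10 was 0.77, against 0.04 over all genes.

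Acmsd was at 0.493, 0.665 and 0.344 FPKM in wild-type mice and at 26.5, 15.5 and 18.6 FPKM in the libraries labelled IL-33 knockout. All 3 wild-type kidneys were thus under 1 FPKM and all 3 knockout kidneys above 15 FPKM. The change was 3.79 ± 0.19 (SE), adjusted p = 2.5e-05 (limma), and the ratio of the means was 40.4. Qprt, which acts on the quinolinate that forms from ACMS, went from 6.26, 7.04 and 5.02 FPKM to 33.5, 33.8 and 40.0 FPKM. Its change was 2.38 ± 0.13 (SE), adjusted p = 3.16e-05 (limma), and the knockout mean was 5.86 times that of wild type. Transcripts of both the degrading and the NAD-forming enzyme thus rose.

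Upstream in the pathway, Kynu rose from 0.226, 0.287 and 0.174 FPKM to 3.71, 2.48 and 3.62 FPKM, by 1.78 ± 0.15 (SE), adjusted p = 0.000146 (limma). The ratio of its means was 14.3. Its wild-type mean of 0.229 FPKM was under the filter, so Kynu was tested only through its knockout libraries. Haao was at 9.46, 15.7 and 11.2 FPKM and then at 24.7, 22.7 and 21.5 FPKM (0.90 ± 0.17, SE, adjusted p = 0.00493, limma). Its wild-type kidneys varied more than its knockout kidneys, and the groups did not overlap. Kmo did not pass, with levels of 9.83, 11.8 and 6.24 FPKM in wild-type mice and of 12.1, 13.2 and 10.2 FPKM in knockout mice (0.35 ± 0.21, SE, adjusted p = 0.225, limma), with overlap. Its opposite-strand neighbour Fh1 was at 95.6 to 144 FPKM in wild type and at 56.5 to 58.1 FPKM in the knockout.

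Afmid rose from 2.81, 2.98 and 1.69 FPKM to 5.97, 4.52 and 4.02 FPKM (0.75 ± 0.19, SE, adjusted p = 0.0180, limma). This call was lost without IL-33 knockout library 1 (adjusted p = 0.0712, limma) and with no filter (adjusted p = 0.0575, limma). Added to the same-strand Gm20708, its level was 6.14, 6.44 and 4.24 FPKM in wild-type mice and 9.03, 6.10 and 6.47 FPKM in knockout mice, and those sums overlapped.

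In the salvage routes, Nampt rose from 19.0, 22.1 and 27.0 FPKM to 33.1, 37.9 and 34.7 FPKM (0.62 ± 0.13, SE, adjusted p = 0.00867, limma). Naprt rose from 8.84, 10.6 and 8.73 FPKM to 18.3, 15.7 and 17.2 FPKM (0.80 ± 0.11, SE, adjusted p = 0.00124, limma). Eef1d, which overlaps Naprt on the same strand, was at 10.4 to 12.3 FPKM over all 6 libraries. Neither gene's groups overlapped.

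Nmnat1 was at 1.90, 3.59 and 2.85 FPKM in wild-type mice and at 3.81, 4.63 and 4.56 FPKM in the libraries labelled IL-33 knockout (0.52 ± 0.18, SE, adjusted p = 0.0526, limma). Its groups did not overlap, yet it missed the threshold, and it passed without wild-type library 2 (adjusted p = 0.0197, limma). Nadk was at 38.3, 39.6 and 42.7 FPKM and at 43.1, 42.0 and 40.0 FPKM, the smallest change of the 10 (0.05 ± 0.08, SE, adjusted p = 0.649, limma).

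The order of the levels changed with these rises. In wild type of the IL-33 set, Nadk was highest (40.2 ± 2.30 FPKM, SD, n = 3), followed by Nampt (22.7 ± 4.06), with no overlap between their libraries. Haao, Naprt and Kmo came next at means of 12.1, 9.40 and 9.30 FPKM, and neighbours among them overlapped. Acmsd (0.501 ± 0.160) and Kynu (0.229 ± 0.0566) were lowest. In the libraries labelled IL-33 knockout, Nadk (41.7 ± 1.61) and Qprt (35.8 ± 3.71) overlapped at the top, as did Qprt and Nampt (35.2 ± 2.43). Acmsd (20.2 ± 5.64) overlapped Haao (23.0 ± 1.61) and Naprt (17.1 ± 1.28), and Kynu was the lowest again (3.27 ± 0.688). In the PAD4 set, Nadk was highest and Kynu lowest in both genotypes, and Haao moved from rank 4 in wild type to rank 2 in the knockout, where its libraries overlapped those of Nadk and Naprt.

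Acmsd was also set against Qprt within each library, as a description with no test. In the IL-33 set the ratio of their FPKM was 0.0787, 0.0944 and 0.0687 in wild-type libraries and 0.790, 0.459 and 0.466 in knockout libraries, so Acmsd stood closer to Qprt in all 3 knockout kidneys. As log2 of (Acmsd + 1) over (Qprt + 1) it was -2.28, -2.27 and -2.16 and then -0.33, -1.07 and -1.06, in the same direction.

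In the PAD4 set the direction depended on the added 1. The plain ratio was 0.0484, 0.0650 and 0.115 in wild-type libraries and 0.105, 0.0933 and 0.151 in knockout libraries, with overlap and a higher knockout mean. With 1 added to both genes, the log2 ratio was -0.94, -1.16 and -1.32 and then -2.23, -1.54 and -1.90, lower in the knockout. Since Acmsd was under 1 FPKM in all 6 libraries, no direction is read from either. The plain ratio, added after seeing the data, of Nampt over Naprt overlapped between genotypes in both sets, with means of 0.754 ± 0.205 (SD, n = 3) in wild-type libraries and 0.901 ± 0.156 in the PAD4 knockout, and of 2.44 ± 0.566 and 2.08 ± 0.303 in the IL-33 set.

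**Figure D3:**
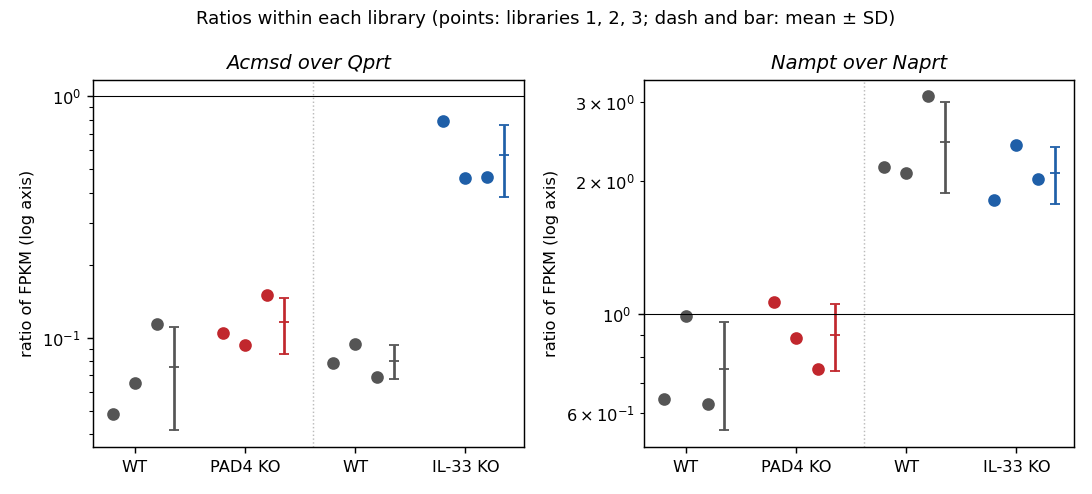
Ratio of FPKM, with nothing added (vertical log axes), of Acmsd over Qprt and of Nampt over Naprt in each library, with the group mean ± SD (n = 3) beside the points. The Acmsd over Qprt ratio lies above its wild type in the libraries labelled IL-33 knockout (0.459 to 0.790 against 0.0687 to 0.0944) and overlaps it in the PAD4 set, and the Nampt over Naprt ratios overlap within both sets.

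The changes of the 2 comparisons were set against each other in a contrast over all 12 libraries. Each set carries its own batch label, so genotype-specific differences and batch cannot be told apart. Of the 8 genes tested in both sets, 0 differed at an adjusted p of 0.05 in limma, against 12.4% of all 13010 genes (6.18% with a higher and 6.23% with a lower change in the IL-33 set), and 1 of the 8 had an unadjusted p under 0.05, against 27.3% of all genes. That gene was Qprt, whose IL-33 change exceeded its PAD4 change by 1.10 ± 0.37 (SE), adjusted p = 0.0709 (limma). Haao and Kmo lay the other way, at -0.87 ± 0.42 (SE, adjusted p = 0.201, limma) and -0.77 ± 0.41 (SE, adjusted p = 0.244, limma). These intervals are wide, and no likeness of the knockouts is shown by them. Without PAD4 knockout library 2, Haao (adjusted p = 0.00679, limma) and Kmo (adjusted p = 0.0223, limma) differed, and Qprt differed without PAD4 knockout library 1 (adjusted p = 0.0307, limma). Acmsd and Kynu could be compared only with no filter, where their IL-33 changes were higher by 3.27 (adjusted p = 0.000945, limma) and 1.65 (adjusted p = 0.00101, limma). Both were under 1 FPKM in every library of the PAD4 set, where the added 1 shrinks a change. Their knockout means were 5.09 and 3.72 times those of wild type there, and 40.4 and 14.3 times in the IL-33 set.

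Among the other genes of tryptophan breakdown, 4 of 10 tested rose and 2 fell in the PAD4 set, where 8.89% of all genes rose and 8.79% fell. Their median change was 0.52. Kyat3 and Aadat, aminotransferases that turn kynurenine into kynurenic acid, rose by 1.11 ± 0.26 (SE, adjusted p = 0.00624, limma) and 1.52 ± 0.39 (SE, adjusted p = 0.0118, limma). Gcdh, which acts on glutaryl-CoA at the end of the oxidative branch, rose by 1.43 ± 0.36 (SE, adjusted p = 0.00950, limma), and Slc3a2, the heavy chain of the large amino acid transporters, fell by 1.14 (adjusted p = 0.0192, limma). Without wild-type library 1 none of the 10 rose or fell, without wild-type library 3 only 1 rose and 0 fell, and without PAD4 knockout library 2 the counts stayed at 4 and 2. Falls numbered 1 without knockout library 1 and 0 without knockout library 3.

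Of these genes, 6 of 11 tested rose and 2 fell in the IL-33 set, where 22.2% of all genes rose and 16.8% fell, and their median change was 0.50. Ido2 was at 0.199, 0.228 and 0.335 FPKM in wild-type mice and at 2.73, 2.33 and 1.74 FPKM in knockout mice (1.37 ± 0.14, SE, adjusted p = 0.000363, limma). Its wild-type mean was 0.254 FPKM, so it reached the filter only through the knockout libraries and had to differ; 5 of the other 10 rose. The ring-opening dioxygenases Tdo2 and Ido1 reached at most 0.110 and 0.125 FPKM there, values looked up after seeing the data. Aadat rose from 18.0, 39.6 and 30.2 FPKM to 93.3, 129 and 101 FPKM (1.90 ± 0.26, SE, adjusted p = 0.00126, limma). Slc3a2 fell by 1.19 (adjusted p = 0.000776, limma) and Ddc, which decarboxylates aromatic amino acids, fell by 1.51 (adjusted p = 0.000831, limma). With any 1 library left out, 4 or 5 of the 11 rose.

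Of the other NAD synthesis genes, 2 of 6 tested rose in the PAD4 set and 3 of 6 in the IL-33 set, and 0 fell in either, against rises of 8.89% and 22.2% over all genes. Slc22a13, a transporter of nicotinate and other organic anions, rose from 4.30, 5.93 and 7.42 FPKM to 52.4, 11.5 and 40.0 FPKM in PAD4 knockout mice (2.16 ± 0.41, SE, adjusted p = 0.00154, limma). Its rise in the IL-33 set was from 5.74, 13.5 and 10.8 FPKM to 57.5, 77.3 and 60.4 FPKM (2.64 ± 0.27, SE, adjusted p = 0.00033, limma). Nmrk1, the nicotinamide riboside kinase, rose by 0.93 ± 0.27 (SE, adjusted p = 0.0234, limma) and 1.79 ± 0.22 (SE, adjusted p = 0.000821, limma). Nadk2, the mitochondrial NAD kinase, rose in the IL-33 set by 0.53 ± 0.10 (SE, adjusted p = 0.00519, limma), unlike its cytosolic counterpart Nadk, which did not pass there; the difference between them was not tested. Without wild-type library 1, 0 of these 6 genes rose in the PAD4 set; without wild-type library 3 or PAD4 knockout library 1, 1 rose.

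Of the genes that consume or reduce NAD, 3 of 17 tested rose and 2 fell in the PAD4 set, against 8.89% and 8.79% of all genes: the mitochondrial sirtuins Sirt3 (0.95 ± 0.25, SE, adjusted p = 0.0134, limma) and Sirt4 (0.89 ± 0.26, SE, adjusted p = 0.0247, limma) and the NADH hydrolase Nudt12 (1.07 ± 0.24, SE, adjusted p = 0.00513, limma) rose. Cd38, an NAD hydrolase also found on leukocytes, fell from 2.81, 5.19 and 6.15 FPKM to 0.611, 1.97 and 1.72 FPKM (adjusted p = 0.00482, limma). Parp14, named after its value was seen, fell as well (adjusted p = 0.0314, limma). The IL-33 set had 5 rises and 1 fall among 16 tested, against 22.2% and 16.8% of all genes. Sirt2 rose by 0.45 (adjusted p = 0.0150, limma), Parp1, the DNA damage sensor, by 0.75 (adjusted p = 0.0203, limma), Nudt12 by 0.81 (adjusted p = 0.0204, limma) and Sirt3 by 0.42 (adjusted p = 0.0326, limma). These counts depend on single libraries. In the PAD4 set 0 rose without wild-type library 1 and 1 without knockout library 1, and leaving out any library but knockout library 2 left 0 or 1 falls. In the IL-33 set 0 rose without knockout library 1 or without knockout library 3, 2 without knockout library 2, 3 without wild-type library 1 and 8 without wild-type library 3; the number of falls was 0 or 1 throughout.

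Of the transcription regulators linked to NAD synthesis in the tubule, 1 of 4 tested rose in the PAD4 set and 3 of 5 in the IL-33 set, and 0 fell, against the same 8.89% and 22.2% of rises over all genes. Ppargc1a, the coactivator of mitochondrial biogenesis, was at 0.964, 1.55 and 1.75 FPKM in wild-type mice and at 4.80, 2.08 and 2.82 FPKM in PAD4 knockout mice (0.77 ± 0.25, SE, adjusted p = 0.0358, limma). It rose in the IL-33 set from 3.55, 5.25 and 5.24 FPKM to 11.8, 14.2 and 12.2 FPKM (1.28 ± 0.15, SE, adjusted p = 0.000625, limma). Esrra (1.51 ± 0.23, SE, adjusted p = 0.00205, limma) and Hnf4a (0.88 ± 0.19, SE, adjusted p = 0.00819, limma) rose in the IL-33 set. Leaving out wild-type library 1, wild-type library 3 or knockout library 1 left 0 of the PAD4 set's 4 regulators past the threshold, and leaving out knockout library 2 left 2.

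**Figure D4:**
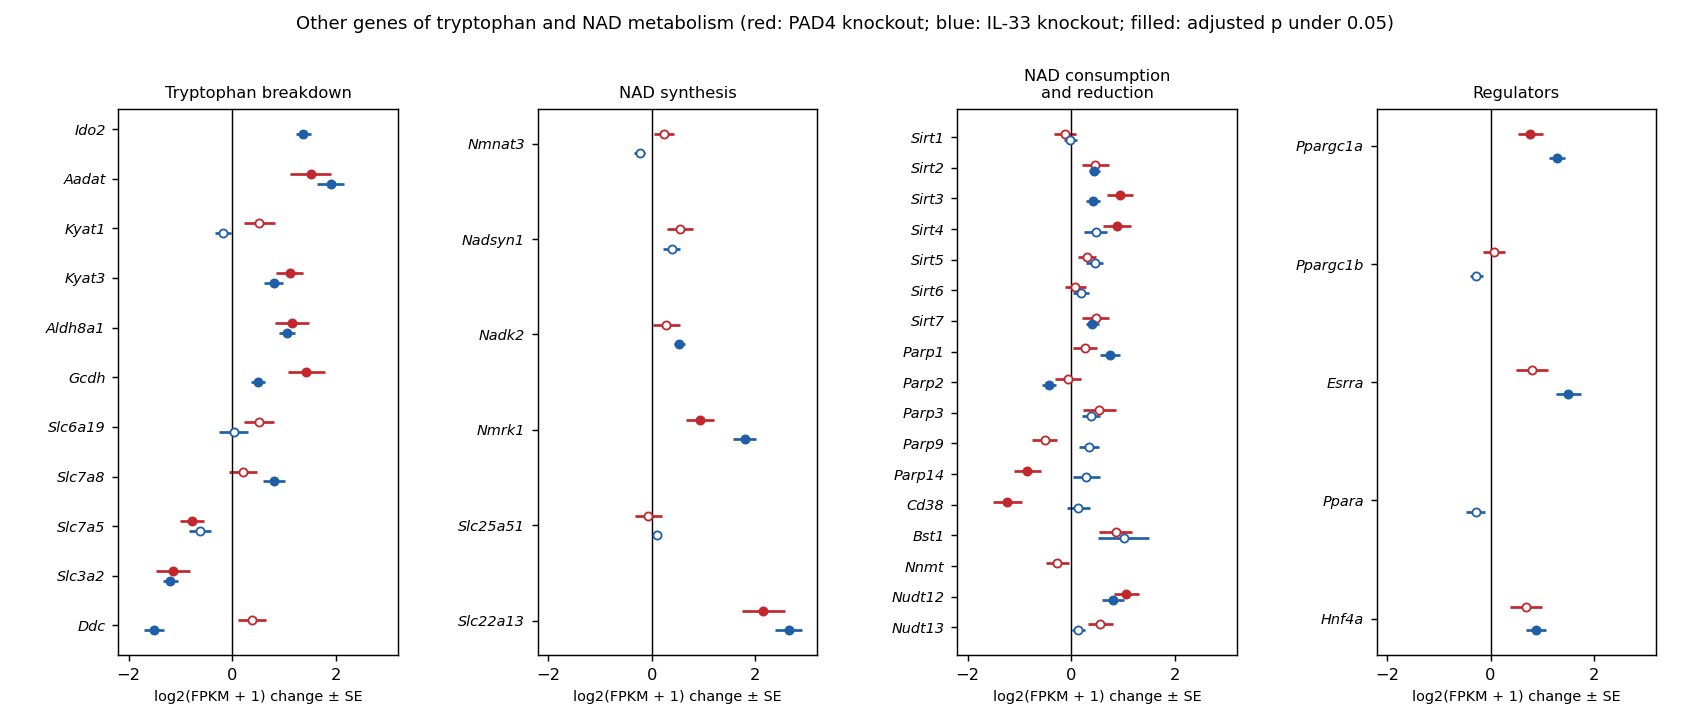
Change of the other tryptophan and NAD genes that were tested (horizontal axes, knockout minus wild type in log2(FPKM + 1), bars ± SE), in red for PAD4 and blue for IL-33, filled where the adjusted p was under 0.05. Slc22a13 has the highest change in both sets (2.16 and 2.64). Ddc passed only in the IL-33 set and Cd38 only in the PAD4 set.

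Most markers of the proximal tubule rose in both comparisons. Over all genes tested, 8.89% rose and 8.79% fell in the PAD4 set, and 22.2% rose and 16.8% fell in the IL-33 set. The median of 20 proximal tubule markers was 1.49, 1.59 and 2.73 FPKM in wild type of the PAD4 set and 22.0, 7.63 and 25.4 FPKM in PAD4 knockout mice, and 15 of 19 tested rose and 0 fell, with a median change of 1.63. Of the 15, 1 reached the filter through the knockout libraries alone. The count of rises was 9 without wild-type library 1 and 17 without PAD4 knockout library 2. PAD4 knockout library 2 had the lowest marker median of its group. It was also the lowest in 8 of the 10 genes, Haao, Qprt, Kmo and Acmsd included. The markers Slc13a1, Slc5a2 and Slc5a12 were instead highest of the knockout libraries in library 2, as was Afmid. In the IL-33 set the marker median was 24.4, 40.8 and 28.3 FPKM in wild-type mice and 150, 109 and 131 FPKM in knockout mice, and 15 of 20 rose and 2 fell, with a median change of 2.12. Among the markers, Lrp2, an endocytic receptor of the proximal tubule, rose by 1.91 ± 0.29 (SE, adjusted p = 0.000308, limma) in the PAD4 set and by 2.91 ± 0.17 (SE, adjusted p = 3.42e-05, limma) in the IL-33 set. In these bulk samples, fewer proximal tubule cells and less RNA per cell cannot be told apart, and the part of these markers in the changes of the 10 genes was not tested.

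**Figure D5:**
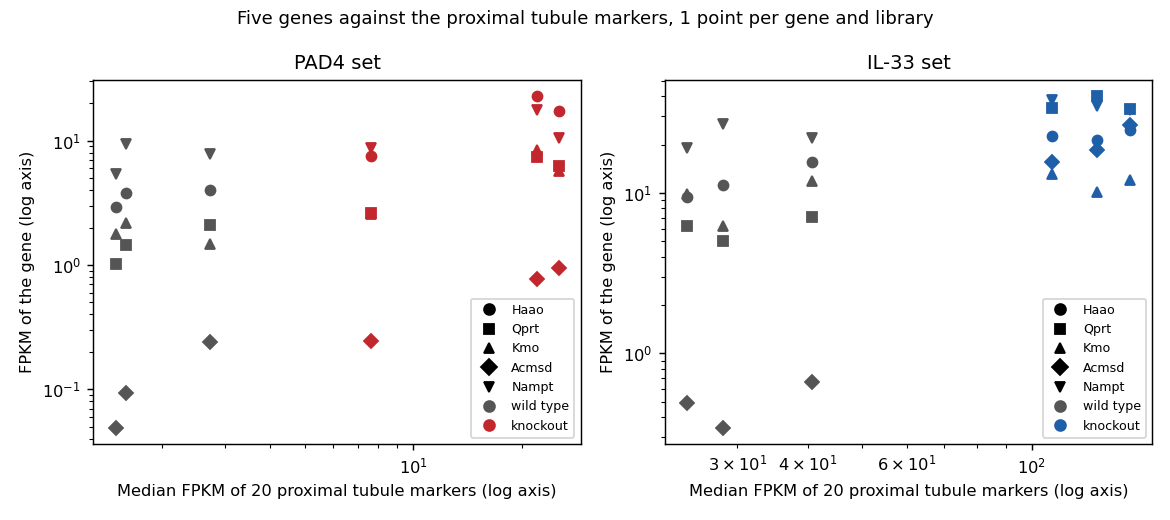
FPKM of Haao, Qprt, Kmo, Acmsd and Nampt (vertical log axes) against the median FPKM of 20 proximal tubule markers in the same library (horizontal log axes), with grey for wild type and colour for knockout, 1 point per gene and library. Within each set the knockout libraries lie to the right of all wild-type libraries, and PAD4 knockout library 2, at 7.63 FPKM, lies between the groups; these 5 genes were chosen for the plot after their values were seen.

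Markers of other cell types also changed. The counts below stand beside 8.89% rises and 8.79% falls over all genes in the PAD4 set, and 22.2% and 16.8% in the IL-33 set. Of the thick ascending limb and distal tubule markers, 3 of 9 tested rose and 1 fell in the PAD4 set (median change 1.19), and 7 of 10 rose and 0 fell in the IL-33 set (1.59). Of the 10 collecting duct markers, 4 rose and 0 fell in each set (median changes 0.80 and 0.53). Of the macrophage and monocyte markers, 5 of 9 tested fell and 0 rose in the PAD4 set (median change -0.65), and 5 of 8 rose and 2 fell in the IL-33 set (1.30). Among these rises, 1 collecting duct marker in the PAD4 set and 1 macrophage marker in the IL-33 set reached the filter through the knockout libraries alone. Among the 5 macrophage falls in the PAD4 set, 3 (Adgre1, Mrc1 and Ly6c2) reached it through the wild-type libraries alone and so had to differ. The part of these cell types in the changes of the 10 genes was not tested. Tubular injury markers fell in 5 of 10 in the PAD4 set and 9 of 10 in the IL-33 set, and rose in 1 and 0. Of the 9, 2 (Krt20 and Sox9) reached the filter through the wild-type libraries alone and so had to differ. The 12 colon markers summed to 715 to 1176 FPKM in wild type of the PAD4 set and to 198 to 425 FPKM in its knockout, and the 10 smooth muscle markers to 433 to 922 FPKM and 83.2 to 301 FPKM. The 10 neutrophil markers summed to 53.1 to 175 FPKM and to 9.93 to 62.7 FPKM, and 4 of 8 tested fell. No marker of these 3 lists was at 0 in all 6 libraries, which held for every gene listed in this set. PAD4 knockout library 2 had the highest sum of the knockout libraries in each of the 3. The part of this RNA in the changes of the 10 genes in the PAD4 set was not tested. In the IL-33 set, 9 of the 12 colon markers were listed, and they summed to 65.6 to 94.2 FPKM in wild type and 55.0 to 58.3 FPKM in the knockout. The smooth muscle markers summed there to 49.3 to 70.0 FPKM and 72.8 to 84.1 FPKM, and the neutrophil markers to 3.04 to 7.69 FPKM and 5.13 to 7.66 FPKM. Medians of the colon and neutrophil lists were at most 2.63 and 0.324 FPKM in any library of that set. Ly6g, the defining neutrophil marker, was at 0 in 5 of its 6 libraries.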

How the data were processed

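The authors deposited FPKM values per gene, 1 table for each set, as the file headers show. RNA was, per the labels' protocols, selected with oligo(dT) and the library kit kept the strand. FastQC, cutadapt, HISAT2, StringTie, DESeq2 and edgeR are named in the submitters' processing notes, with no version. The genome build is not given in the sources used here. Gene symbols and overlaps came from GENCODE M21. All columns were mapped to a library or group, and 0 belonged to no sample.

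Within each set, log2(FPKM + 1) was fitted over genes whose mean reached 0.5 FPKM with limma 3.58.1 in R 4.3.3 (mean-variance trend, Benjamini-Hochberg adjustment over all genes tested, two-sided, threshold 0.05). The fit was tested on simulated data. P-values measure the spread between 3 mice per group. FPKM carries no depth, so no counting interval is given.

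The genes, the 15 lists and the tests were chosen with earlier results of these data known. Named were the 10 genes, Padi4, Il33, a few cell markers, and up to 4 genes of each pathway list with the smallest adjusted p. Nnt was left out of its list because its symbol has 2 gene entries, so 19 of 20 NAD-consuming genes were used. The promoter search first also covered the bases after the start and was then limited to the 250 before it, with the same 4 matches. A regulator gene, a motif and a promoter window are not reported here. List counts without single libraries and ratios of plain FPKM were added after seeing the data.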

Additional observations from a re-analysis of the deposited data

Results flagged for a closer look

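2 genes of the other pathway lists changed differently in the 2 sets by the contrast over all 12 libraries. By the same rule 12.4% of all 13010 genes tested in both sets differed, so such differences are common. The change of Ddc in the IL-33 set was lower than that in the PAD4 set by 1.89 on the log2(FPKM + 1) scale (-1.89 ± 0.36, SE, adjusted p = 0.00418, limma), with levels of 40.3, 43.0 and 27.9 FPKM in wild-type mice and 10.6, 15.1 and 11.2 FPKM in the libraries labelled IL-33 knockout. The change of Cd38 in the IL-33 set was higher than that in the PAD4 set by 1.37 ± 0.39 (SE, adjusted p = 0.0333, limma), and Cd38 did not pass in the IL-33 set (0.14 ± 0.23, SE, adjusted p = 0.649, limma). Sets and batches cannot be told apart in either difference.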

How the results depend on the processing

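Besides the library left out in turn, 11 other settings were tried. In the PAD4 set, the number of the 10 genes that rose went from 4 to 0 with no filter and to 1 to 5 with a library left out, and the 2473 genes called overall went to 0 with no filter, 5206 with array weights and 1064 to 3534 with a library left out. Array weights did not converge fully in 2 fits. Kmo was also lost with median-of-ratios scaling (adjusted p = 0.0547, limma) and quantile normalization (0.0504), and Afmid passed without wild-type library 2 (0.00151) or PAD4 knockout library 1 (0.0125). In the IL-33 set 6 to 8 genes rose, and the 5671 genes called overall went to 3626 to 6131 with a library left out (3626 without knockout library 1 and 3687 without knockout library 3). Nmnat1 passed there with the filter raised to 2 FPKM (adjusted p = 0.0495, limma) and with rescaling without mitochondrially encoded genes (0.0371). For the difference between the sets, the 0 genes that were higher became 2 with no filter and 1 with rescaling without mitochondrially encoded genes, quantile normalization or array weights, and 0 to 1 with a library left out; the 0 that were lower became 1 with array weights and 0 to 2 with a library left out. The 1615 genes that differed overall became 1011 with the filter raised to 2 FPKM, 3041 with median-of-ratios scaling, 3135 with quantile normalization, 3525 with array weights and 1055 to 1859 with a library left out (1055 without IL-33 knockout library 1).

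Signs turned only among changes that did not pass the test. With array weights Afmid was at -0.31 and Nadk at -0.025 in the PAD4 set, and with median-of-ratios scaling Nadk was at -0.013 in the IL-33 set. For the difference, Afmid was at -0.073 and Nampt at -0.013 with a pseudocount of 0.1, Nampt at -0.0069 with median-of-ratios scaling, and Nadk at 0.024 with quantile normalization and 0.086 with array weights. With a library left out, that difference ranged from -0.28 to 0.60 for Afmid and from -0.17 to 0.30 for Nampt. The cause was not tested for any of these. The knockout minus wild-type log2 ratio of Acmsd over Qprt, which has no test, went from -0.75 to 0.68 in the PAD4 set and from 1.42 to 2.79 in the IL-33 set with nothing added to the FPKM values.

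Deviations from the group mean correlated at -0.15 to 0.13 between same-numbered libraries and at -0.13 to 0.23 between differently numbered ones. No pairing by number was seen, but with 3 libraries per group this check cannot settle whether the numbers pair the mice. With the replicate number as a block, 4 genes rose in the PAD4 set and 8 in the IL-33 set, where Nmnat1 passed (adjusted p = 0.0306, limma), and 1, Qprt, differed between the sets (adjusted p = 0.0249, limma). FPKM without depth gives no limit of detection for Acmsd and Kynu in the PAD4 set.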
